A study of Mus musculus with 8 samples.

Results

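The E2F family of transcription factors is encoded in the mouse by 8 genes, E2f1 to E2f8. Its transcripts were followed here in germ cells of E15.5 embryos, either controls or with a conditional knockout of Snf5 in the germline (Snf5 CKO). Snf5 belongs to the core of SWI/SNF, a remodeler of chromatin, and is listed under its symbol Smarcb1. The members were found by gene symbol among the 24631 gene names of the deposited tables, and all 8 had exactly 1 entry in the female table and 1 in the male table. Oct4-EGFP, a transgene that marks germ cells, had served to sort them from fetal ovaries and testes, and each of the 4 groups (female control, female Snf5 CKO, male control, male Snf5 CKO) had 2 libraries. Snf5 CKO embryos carried a floxed and a deleted Snf5 allele (Snf5 fx/Δ) together with TNAP-Cre, a Cre knocked into Alpl, so that recombination took place in primordial germ cells. The study estimated from these libraries that recombination was incomplete. Its staining also found some SNF5-positive germ cells in E15.5 Snf5 CKO gonads, so the Snf5 CKO libraries include cells that kept Snf5. The control libraries were a mixture of Snf5 fx/+, Snf5 fx/Δ and Snf5 fx/+ with TNAP-Cre germ cells, so that some control cells also carried a deleted allele or the Cre. Most libraries pooled cells of several embryos, while at least 1 male Snf5 CKO library came from a single embryo. The sample labels give the strain background as C57BL/6 whereas the methods of the study describe a mixed one. The p-values below rest on the spread between these samples, pooled in part with that of other genes.

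E2F proteins bind DNA next to genes for DNA replication and the cell cycle. E2F1, E2F2 and E2F3 are the activators, which drive cells from G1 into S phase once cyclin D kinases have released them from the retinoblastoma protein. E2F4 and E2F5 repress together with the pocket proteins in resting cells, E2F6 represses without a pocket protein as part of a Polycomb complex that silences germline genes in somatic cells, and E2F7 and E2F8 are atypical repressors that need no dimerization partner and are themselves E2F targets. In normal embryos at E15.5, female germ cells have entered meiotic prophase, whereas male germ cells have stopped dividing as prospermatogonia. The study reported both steps as impaired in Snf5 CKO germ cells at this age.

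The values are FPKM, that is fragments scaled by transcript length and by the mapped fragments of the library, and each sex was tested alone because the tables had been normalized separately. A gene passed the test when its limma p on log2(FPKM + 1), adjusted by Benjamini and Hochberg over all genes tested in that sex, was under 0.05. Fold changes are on this log2(FPKM + 1) scale, Snf5 CKO over control, and understate the change of genes with low values. Their standard errors (SE) are those of limma, which draw each gene's spread toward that of other genes. For 1 gene on its own, the smallest p that an exact two-sided permutation over 4 libraries can give is 0.333. FPKM of all loci summed to between 673741 and 1554757 in a library. Smarcb1 was at 23.4 and 22.3 FPKM in the female controls and at 4.24 and 2.47 FPKM in female Snf5 CKO. In males it was at 141 and 167 FPKM in control and at 8.73 and 10.1 FPKM in Snf5 CKO. These values span all exons, and the floxed one is the first. The germ cell markers Ddx4 and Dazl were above 200 FPKM in all 8 libraries, though Ddx4 was lower in male Snf5 CKO (log2 change -0.93, adjusted p = 0.036). Of the 6 germ cell markers, 3 rose and 1 fell in females, and 1 rose and 2 fell in males. Mael fell in both sexes, from means of 650 to 172 FPKM in females and 998 to 128 FPKM in males, and Kit rose in both. Dppa3 and Pou5f1 rose in females, from 51.2 to 1519 FPKM and from 12.7 to 314 FPKM. Markers of gonadal somatic cells also moved. Sertoli cell markers summed to between 75.2 and 86.0 FPKM in the male controls and between 311 and 525 FPKM in male Snf5 CKO. All 8 of them were higher there, with Sox9, Amh and Dhh above 0 in every male library. Leydig cell markers went from between 58.2 and 85.7 to between 15.2 and 19.2 FPKM in males, with 3 of 5 tested genes lower, and stromal markers from between 11.3 and 22.1 to between 3.06 and 4.63 FPKM, with 3 genes lower. Male pre-granulosa markers summed to 10.5 and 11.5 FPKM in control and to 13.1 and 15.2 FPKM in Snf5 CKO. Of 3 tested there, Irx5 rose from a mean of 0.154 to 7.67 FPKM (adjusted p = 0.0022) and Rspo1 fell from 7.76 to 2.87 FPKM (adjusted p = 0.014). Pre-granulosa markers summed to between 9.98 and 12.2 FPKM in the female controls and between 23.9 and 27.1 FPKM in female Snf5 CKO, with 6 of 7 tested genes higher and 1 lower. Female Sertoli markers summed to 7.55 and 9.07 FPKM in control and to 11.3 and 10.1 FPKM in Snf5 CKO, with Dhh listed at 0 in both controls and 2 of 3 tested genes, Gata4 and Wt1, higher. Summed female Leydig markers went from 4.74 and 4.89 FPKM to 12.0 and 11.8 FPKM. The 1 gene called higher was Insl3, from 3.13 and 3.99 to 8.52 and 10.1 FPKM. It is listed jointly with Jak3 in both sexes, and the part of Jak3 was not tested. Female Hsd3b1 did not pass (adjusted p = 0.058), and Cyp11a1 and Cyp17a1 had Snf5 CKO means of 0.029 and 0.143 FPKM. Male Insl3 is among the 3 lower Leydig genes. Summed female stromal markers went from 13.5 and 6.27 FPKM to 4.08 and 5.26 FPKM, with 1 gene lower. Blood and endothelial markers ran from 25.8 to 99.0 FPKM in the female controls and from 28.1 to 84.3 FPKM in female Snf5 CKO. Among them, 1 gene was higher in females, Pecam1, from a mean of 3.87 to 22.0 FPKM (adjusted p = 0.00021). The other listed endothelial genes, Cdh5, Kdr and Tek, had means of 0.118, 0.269 and 1.13 FPKM in female control. In female Snf5 CKO they were at 0.0047, 0.0775 and 0.541 FPKM, and they were not tested there. The female hemoglobin entries did not pass (log2 change -1.22 and -1.42, adjusted p = 0.39 and 0.35). In males the blood and endothelial markers ran from 63.2 to 103 FPKM in control and from 60.7 to 65.0 FPKM in Snf5 CKO. There 1 gene was lower, Tek, from a mean of 2.75 to 0.686 FPKM (adjusted p = 0.0063). The part of these cells in the results below was not tested. Marker genes entered the test only if their FPKM averaged 1 or more in their table. Wt1, Foxl2, Wnt4, Irx5 and Hsd3b1 in females, and Irx5 and Cldn11 in males, fell short of this in control and entered through Snf5 CKO. Col1a1 in both sexes and male Col1a2, Pdgfra and Tek fell short of it in Snf5 CKO and entered through control. The marker counts and adjusted p-values thus describe the listed genes and support nothing.

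Promoters are shown for E2f2, E2f3, E2f7 and E2f8, the members whose mean was higher in Snf5 CKO in both sexes and whose control level was under 4 FPKM in every library. The male difference of E2f7 did not pass the test. Each line holds 300 bases, from 250 before the RefSeq transcript start to 50 after it, on GRCm38.p6, written 5′ to 3′ on the strand of the gene. Capitals mark the words TTTCCCGC, TTTCGCGC, TTTGCCGC and TTTGGCGC, forms of the E2F site, and the word TTTGAA, the cell cycle homology region through which DREAM binds, each on either strand.
E2f2 (chr4:136172024-136172323, plus strand): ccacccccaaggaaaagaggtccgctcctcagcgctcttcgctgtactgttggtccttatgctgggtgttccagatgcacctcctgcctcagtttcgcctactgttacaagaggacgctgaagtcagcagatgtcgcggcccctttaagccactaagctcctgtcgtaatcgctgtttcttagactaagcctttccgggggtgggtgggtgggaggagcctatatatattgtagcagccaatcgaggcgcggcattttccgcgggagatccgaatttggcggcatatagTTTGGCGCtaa
E2f3 (chr13:29986014-29986313, minus strand): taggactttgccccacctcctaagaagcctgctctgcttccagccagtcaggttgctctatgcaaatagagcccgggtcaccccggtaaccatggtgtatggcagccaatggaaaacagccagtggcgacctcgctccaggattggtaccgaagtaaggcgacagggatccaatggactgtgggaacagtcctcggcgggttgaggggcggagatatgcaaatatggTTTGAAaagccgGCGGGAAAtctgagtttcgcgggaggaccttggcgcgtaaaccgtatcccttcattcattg
E2f7 (chr10:110745189-110745488, plus strand): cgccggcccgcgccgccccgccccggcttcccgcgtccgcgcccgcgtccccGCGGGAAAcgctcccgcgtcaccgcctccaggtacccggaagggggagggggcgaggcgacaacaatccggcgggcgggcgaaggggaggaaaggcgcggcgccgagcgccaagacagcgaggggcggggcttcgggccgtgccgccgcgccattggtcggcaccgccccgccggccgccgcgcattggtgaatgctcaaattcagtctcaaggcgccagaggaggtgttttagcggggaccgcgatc
E2f8 (chr7:48881547-48881846, minus strand): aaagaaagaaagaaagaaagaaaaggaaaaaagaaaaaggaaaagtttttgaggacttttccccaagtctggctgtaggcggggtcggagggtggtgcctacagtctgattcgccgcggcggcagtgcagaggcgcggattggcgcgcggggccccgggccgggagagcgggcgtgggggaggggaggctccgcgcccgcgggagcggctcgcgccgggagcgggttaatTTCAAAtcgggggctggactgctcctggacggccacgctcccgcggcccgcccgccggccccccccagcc
One of the E2F words of 8 letters was found in the windows of E2f2, E2f3 and E2f7, and none in that of E2f8. Among all 32851 promoter windows of this length, 2.26% held at least 1 such word. The E2f3 and E2f8 windows also held TTTGAA, which was present in 17.9% of all windows. With only the last 6 letters of each of these E2F words, matched on both strands and so overlapping the longer words, there were 4 separate matches for E2f2, 3 for E2f3, 7 for E2f7 and 5 for E2f8, and 36.3% of all windows held at least 1. The window of E2f6 held 1 such core and no longer word. That of E2f1 held neither, and its RefSeq start lies 466 bases from the 5′ end of the gene in GENCODE. E2f2 and E2f3 have a further RefSeq start within the gene, which is not shown. These are matches of letters, and binding was not measured.

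In female germ cells all 3 activators rose in Snf5 CKO. E2f3, an activator needed for normal proliferation, changed most among them. It lies on chromosome 13 (29906474 to 29986063, minus strand, mm10) and was at 1.24 and 1.09 FPKM in the controls and at 7.84 and 6.35 FPKM in Snf5 CKO, a rise of 6.10-fold in the mean (log2 change 1.90 ± 0.20 SE, adjusted p = 0.00038). Both Snf5 CKO libraries were well above both controls. E2f2 (chromosome 4, 136172274 to 136196056, plus strand) was at 1.18 and 1.34 FPKM in control and at 3.58 and 3.03 FPKM in Snf5 CKO (log2 change 0.93 ± 0.19 SE, adjusted p = 0.0057). E2f1 (chromosome 2, 154559400 to 154569892, minus strand), the activator that is also linked to cell death, was the most abundant of them at 27.8 and 31.6 FPKM in control and at 42.8 and 42.4 FPKM in Snf5 CKO. Its rise was small (log2 change 0.51 ± 0.17 SE, adjusted p = 0.033) and missed the threshold when any 1 of the 4 libraries was left out, with an adjusted p from 0.058 to 0.19. It also missed it after rescaling the libraries to equal sums, with an adjusted p of 0.11.

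In male germ cells the same 3 genes were higher in both Snf5 CKO libraries than in both controls, and 2 of them passed the test. E2f2 was at 0.424 and 0.478 FPKM in control and at 2.65 and 2.51 FPKM in Snf5 CKO, a 5.72-fold difference between the means (log2 change 1.30 ± 0.16 SE, adjusted p = 0.0043). For E2f3 the levels were 3.19 and 2.54 FPKM in control and 8.61 and 5.33 FPKM in Snf5 CKO (log2 change 1.02 ± 0.27 SE, adjusted p = 0.033). The lower Snf5 CKO library was still above the higher control, but the gene missed the threshold without control replicate 1 (adjusted p = 0.059), control replicate 2 (0.086) or Snf5 CKO replicate 1 (0.10), and with rescaled libraries (0.15). E2f1 was at 31.3 and 29.6 FPKM in control and at 43.3 and 38.1 FPKM in Snf5 CKO (log2 change 0.40 ± 0.17 SE, adjusted p = 0.11), and it passed only in the fit with the replicate number as a block (adjusted p = 0.0035).

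**Figure D1:**
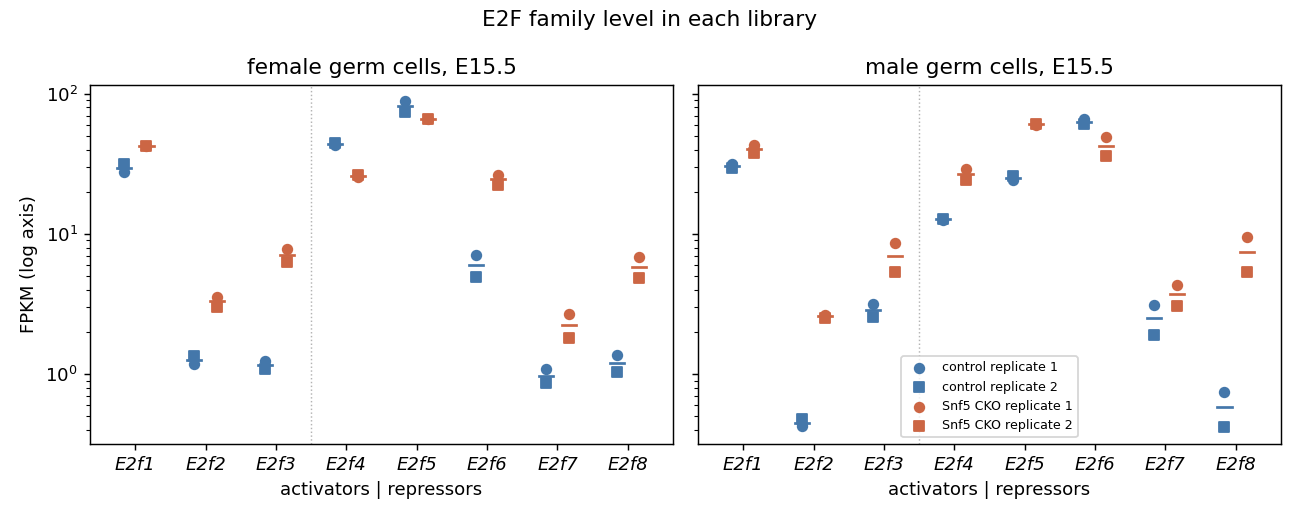
FPKM of E2f1 to E2f8 in each library, on a log axis, in female and male germ cells. Circles are replicate 1, squares replicate 2, and lines the means of 2 libraries. E2f2, E2f3 and E2f8 were higher in both Snf5 CKO libraries than in both controls in each sex, while E2f4, E2f5 and E2f6 lay the other way round in the sexes.

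E2f4 and E2f5, the repressors that work with pocket proteins, were lower in both female Snf5 CKO libraries than in both controls and higher in both male ones, though the female difference of E2f5 did not pass the test. E2f4 (chromosome 8, 105297663 to 105305370, plus strand) fell in female germ cells from 43.1 and 44.7 FPKM in control to 25.5 and 26.4 FPKM in Snf5 CKO, with a log2 change of -0.74 ± 0.16 (SE, adjusted p = 0.0068). Its replicates differed little, and the groups were far apart. In male germ cells it rose from 12.7 and 12.8 FPKM to 29.3 and 24.4 FPKM, 2.11-fold in the mean (log2 change 1.02 ± 0.18 SE, adjusted p = 0.010). This male call was lost without control replicate 1 (adjusted p = 0.051), without Snf5 CKO replicate 1 (0.052) and with rescaled libraries (0.16). E2f4 was the only member that was called in opposite directions. Such calls, lower in females and higher in males, were made for 3.47% of the 10472 genes tested in both sexes. The male table gives E2f4 a joined locus from 105289924, which it shares with the separate entry of the neighbouring Exoc3l on the other strand. Exoc3l was at 16.6 and 14.5 FPKM in the male controls and at 10.9 in male Snf5 CKO replicate 1 and 10.8 in replicate 2, and its part in the male E2f4 values was not tested.

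E2f5 (chromosome 3, locus from 14578671 to 14611256, plus strand) led the family in female controls with 88.6 and 74.0 FPKM and was at 66.2 and 66.1 FPKM in female Snf5 CKO. Both Snf5 CKO libraries were below both controls (log2 change -0.29 ± 0.18 SE), but the difference did not pass the test (adjusted p = 0.19) except with the replicate block (0.034). In males E2f5 rose from 24.3 and 25.8 FPKM in control to 60.2 and 61.2 FPKM in Snf5 CKO, with a log2 change of 1.25 ± 0.16 (SE, adjusted p = 0.0044). With rescaled libraries its adjusted p was 0.051. The locus runs over 1810022K09Rik on the opposite strand, and the library kit does not mark strand, so reads from the overlap cannot be told apart.

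E2f6, the Polycomb-linked repressor, differed from control with the opposite sign to E2f4 and E2f5 in both sexes and passed the test in females. It lies on chromosome 12 (16810965 to 16826752 in the female table, plus strand). In female germ cells it rose from 7.12 and 4.91 FPKM in control to 26.6 and 22.4 FPKM in Snf5 CKO, 4.07-fold in the mean (log2 change 1.88 ± 0.22 SE, adjusted p = 0.00058). It was the most abundant member in male controls, at 66.0 and 60.7 FPKM, and was at 49.3 and 36.1 FPKM in male Snf5 CKO. Both male Snf5 CKO values lay below both controls (log2 change -0.57 ± 0.21 SE), with an adjusted p of 0.080, which became 0.003 with the replicate block.

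The atypical repressors E2f7 and E2f8 were low in all controls. E2f8 (chromosome 7, 48866429 to 48881530, minus strand) rose in both sexes. In females it went from 1.38 and 1.03 FPKM in control to 6.83 and 4.89 FPKM in Snf5 CKO (log2 change 1.63 ± 0.22 SE, adjusted p = 0.0011). In males it went from 0.742 and 0.417 FPKM to 9.48 and 5.34 FPKM, 12.8-fold in the mean and the largest log2 fold change of any member in either sex (2.38, standard error 0.30, adjusted p = 0.0044). The 2 male Snf5 CKO libraries differed from each other but lay far above the controls. With no filter on low values the male adjusted p was 0.051. E2f7 (chromosome 10, 110745460 to 110787384, plus strand) was at 1.09 and 0.862 FPKM in the female controls and at 2.67 and 1.80 FPKM in female Snf5 CKO (log2 change 0.70 ± 0.22 SE, adjusted p = 0.027). That call was lost without control replicate 2 (adjusted p = 0.063) and without Snf5 CKO replicate 1 (0.14). In males E2f7 was at 3.10 and 1.91 FPKM in control and at 4.35 and 3.08 FPKM in Snf5 CKO, so the groups overlapped (log2 change 0.43 ± 0.26 SE, adjusted p = 0.23, or 0.034 with the replicate block). Antisense genes overlap E2f3, E2f7 and E2f8 (Gm11365, 1700020G17Rik and Gm2788), and their reads cannot be told apart from those of the members without strand.

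**Figure D2:**
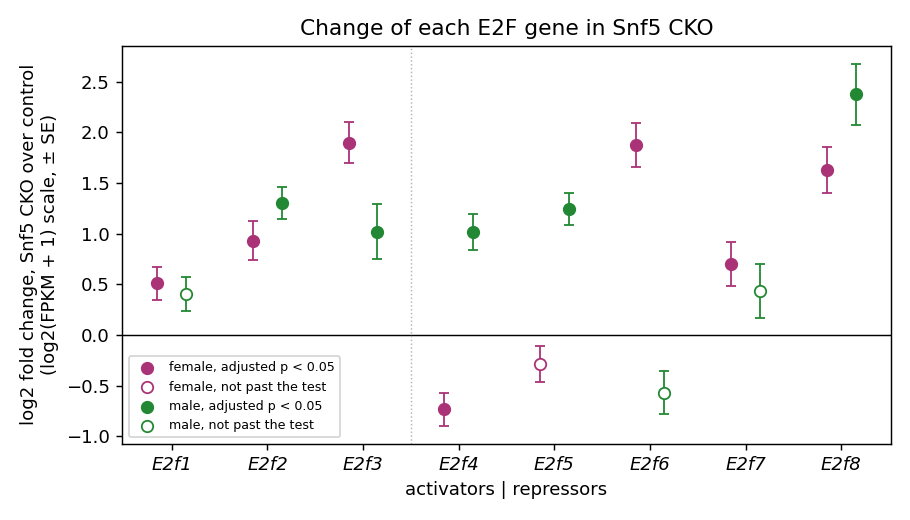
Log2 fold change of each member in Snf5 CKO over control, with its standard error, in females and males (2 libraries against 2). Filled points passed limma's test at an adjusted p under 0.05. E2f4 was at -0.74 in females and 1.02 in males, and E2f6 at 1.88 and -0.57.

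Across the family, 6 of 8 members were called higher and 1 lower in females, and 5 of 8 higher and 0 lower in males. Over all genes tested, 26.7% were called higher and 34.8% lower in females, and 20.9% and 25.3% in males. When the log2 fold change also had to reach 1 in size, 3 members (E2f3, E2f6 and E2f8) were called higher in females against 17.2% of all genes. In males 5 members (E2f2, E2f3, E2f4, E2f5 and E2f8) were called higher by that rule against 14.3%. No member was called lower by it in either sex, against 21.8% of all genes in females and 17.5% in males. The groups did not overlap for 6 members that were higher and 2 that were lower in females, where the shares of all genes were 36.2% and 45.3%, and for 6 and 1 in males, where they were 34.5% and 39.9%. All 8 members passed the filter of a mean of 1 FPKM in both sexes, but E2f7 in females and E2f2 and E2f8 in males had a control mean under 1 and entered through Snf5 CKO, so the counts describe the family and support nothing. With the replicate block all 8 members passed in both sexes, while the block called 33.8% of all genes higher and 42.8% lower in females, and 35% and 41.1% in males. The median log2 fold change over all tested genes was -0.14 in females and -0.07 in males. In bulk samples, a change in the number of cells that use a gene and a change in RNA per cell cannot be told apart.

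The summed activators and summed repressors were set against each other in each library. In females the ratio of activator to repressor FPKM was 0.214 and 0.271 in control and 0.424 and 0.426 in Snf5 CKO. The summed activators rose from 30.2 and 34.0 to 54.2 and 51.8 FPKM, while the summed repressors were at 141 and 125 FPKM in control and at 128 and 122 FPKM in Snf5 CKO. The log2 ratio was thus 0.82 higher in female Snf5 CKO, with a pooled standard deviation between replicates of 0.17. In males the ratio was 0.327 and 0.321 in control and 0.357 and 0.353 in Snf5 CKO, a log2 difference of 0.13 with a pooled standard deviation of 0.017. Here activators went from 35.0 and 32.6 to 54.5 and 46.0 FPKM and repressors from 107 and 102 to 153 and 130 FPKM, so that both sums were higher in Snf5 CKO. The groups did not overlap in either sex, and the ratio was not tested, since an exact permutation of 2 libraries against 2 cannot go below p = 0.333. When each gene counted equally, as the difference of the mean log2(FPKM + 1) of activators and repressors, Snf5 CKO was 0.48 above control in females and 0.0094 above it in males. The sums are led by E2f1 among activators and by E2f4, E2f5 and E2f6 among repressors.

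The order of the members changed with genotype. In female controls it was E2f5, E2f4, E2f1, E2f6 and then E2f2, E2f8 and E2f3, whose ranges overlapped from neighbour to neighbour, with E2f7 last. In female Snf5 CKO it was E2f5, E2f1, E2f4, E2f6, E2f3, E2f8, E2f2 and E2f7, and the ranges of E2f4 and E2f6 overlapped, as did those of E2f3 and E2f8. In male controls the order was E2f6, E2f1, E2f5, E2f4, E2f3, E2f7, E2f8 and E2f2, with overlap between E2f3 and E2f7 and between E2f8 and E2f2. In male Snf5 CKO it was E2f5, E2f6, E2f1, E2f4, E2f8, E2f3, E2f7 and E2f2, with overlap between E2f6 and E2f1 and between E2f8 and E2f3. E2f5 therefore led in 3 of the 4 groups, and E2f6 in the male controls.

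As shares of the summed family FPKM within a library, E2f4 and E2f5 together made up 76.8% and 74.4% in the female controls and 26.1% and 28.8% in the male controls. In Snf5 CKO they made up 50.4% and 53.3% in females and 43.2% and 48.6% in males. E2f6 held 4.15% and 3.08% in the female controls and 46.6% and 45.2% in the male controls. In Snf5 CKO its share was 14.6% and 12.9% in females and 23.8% and 20.5% in males. E2f1 took between 16.2% and 24.5% in all 8 libraries. The share of the family that would have to be reassigned to turn a female library into a male one was between 46.5% and 51.4% for controls and between 6.18% and 14.2% for Snf5 CKO. Between replicates of a group it was between 2.77% and 6.65%. The female and male tables were normalized separately, and this comparison has no test. The distance between the sexes on the log2(FPKM + 1) scale was smaller in Snf5 CKO than in control for 7 of 8 members, all but E2f1, and for 77.7% of the 10472 genes tested in both tables, so the family was near the background. The median distance over those genes was 0.91 in control and 0.35 in Snf5 CKO, against 3.21 and 0.77 for E2f6 and 1.71 and 0.04 for E2f4.

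**Figure D3:**
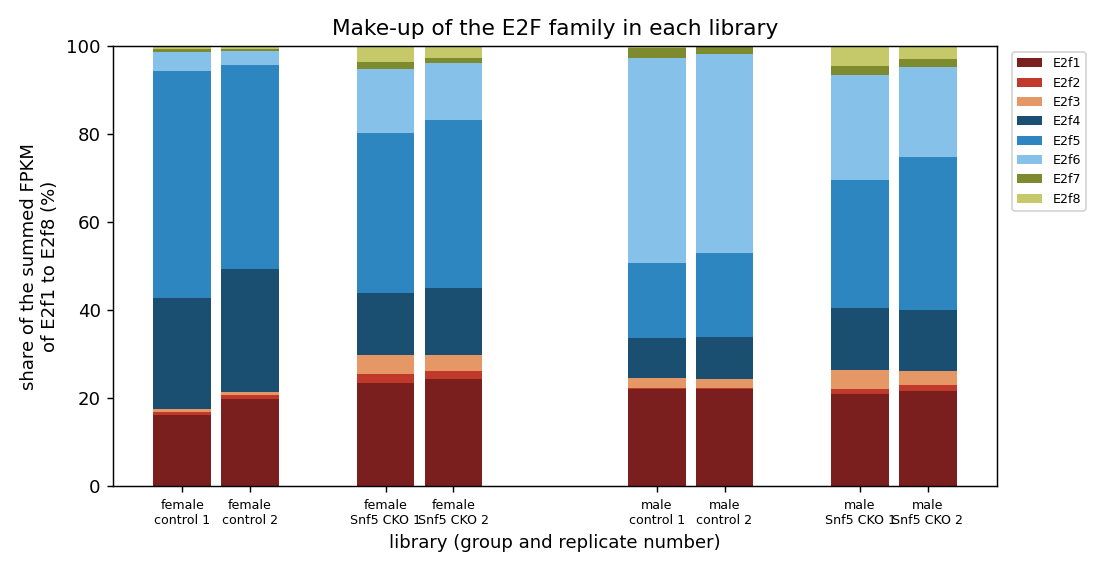
Share of each member in the summed FPKM of E2f1 to E2f8, in percent, with 1 bar a library. E2f4 and E2f5 make up 74.4% or more of the bars of female controls, E2f6 45.2% or more of those of male controls, and the 4 Snf5 CKO bars lie between these in both shares.

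The genes most like E2f3 and E2f8, the activator and the repressor with the largest changes summed over the sexes, were found by the Euclidean distance of their log2(FPKM + 1) values, centred on the controls of each sex, over 8 libraries and 10471 genes. Nearest to E2f3 were Igf2bp1 (listed with Mir3063, distance 0.098), Usp10 (0.21) and Incenp (0.36). Cdc6, which loads the replicative helicase, was nearest to E2f8 (0.48), followed by Ankrd13a (0.48) and Slc1a5 (0.49).

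Typical E2F proteins bind DNA as dimers with DP proteins and are held in check by pocket proteins. Tfdp1, the main partner, rose in females from 77.0 and 67.3 FPKM to 139 and 107 FPKM (log2 fold change 0.75, adjusted p = 0.017) and in males from 62.5 and 48.2 FPKM to 134 and 102 FPKM (log2 fold change 1.08, adjusted p = 0.018). Its call was lost without control replicate 2 and without Snf5 CKO replicate 1 in both sexes, with no filter on low values in both sexes, and in males after rescaling. Tfdp2, the other partner, fell in males from 32.7 and 25.3 FPKM to 14.8 and 10.6 FPKM (log2 fold change -1.13, adjusted p = 0.017), a call lost without control replicate 1. In females, where it is listed with Gk5, the log2 change of Tfdp2 was -0.12 (adjusted p = 0.63). Of 3 pocket proteins, only Rbl2 (p130), the partner of E2F4 in resting cells, passed the test, lower in females at 2.66 and 2.21 FPKM in control and 1.28 and 0.830 FPKM in Snf5 CKO (adjusted p = 0.019, lost without control replicate 1 or Snf5 CKO replicate 2). In males 0 of 3 passed, and 1 was higher with the replicate block. Of all tested genes, 26.7% were called higher and 34.8% lower in females, and 20.9% and 25.3% in males. The female count of lower pocket proteins thus lies near the background. Rb1, the retinoblastoma gene, was between 14.4 and 23.2 FPKM in all libraries.

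Cyclin D genes and their kinases, which inactivate the pocket proteins, mostly rose in Snf5 CKO. In females 4 of 5 passed the test as higher and 0 as lower. Ccnd3 went from 16.5 and 21.4 FPKM to 121 and 144 FPKM (log2 fold change 2.75), and Cdk4 from 33.2 and 39.5 FPKM to 220 and 242 FPKM (log2 fold change 2.64). In males Ccnd1, Ccnd2 and Ccnd3 rose and Cdk6 fell from 6.82 and 5.70 FPKM to 2.34 and 3.13 FPKM (adjusted p = 0.019, lost without control replicate 1 or Snf5 CKO replicate 1). Male Ccnd3 was near the threshold (adjusted p = 0.049), and 2 genes of the list were higher in males with any 1 library left out, with a pseudocount of 0.1, without the trend, with the stricter filter and after rescaling to equal sums. Male Cdk4 was already at 341 and 353 FPKM in control and at 459 and 500 FPKM in Snf5 CKO (adjusted p = 0.15). The inhibitors of these kinases were split, with 3 of 7 higher and 2 of 7 lower in each sex. For both lists, the shares of all tested genes were 26.7% higher and 34.8% lower in females, and 20.9% and 25.3% in males. Female Ccnd2 and Cdkn1b, both called higher, had control means of 0.778 and 0.562 FPKM. They passed the filter through Snf5 CKO, at means of 6.13 and 3.03 FPKM. Female Cdk6, which was not called, also did so (0.933 and 1.37 FPKM). The counts thus describe these lists and support nothing. Cdkn1a (p21) rose from 3.54 and 5.01 FPKM to 57.6 and 75.7 FPKM in females and from 5.27 and 7.94 FPKM to 51.5 and 76.4 FPKM in males. Cdkn2d (p19) also rose and Cdkn2a fell in both sexes. Cdkn2c (p18) fell in females from 9.06 and 8.58 FPKM to 2.85 and 3.25 FPKM and rose in males from 1.05 and 1.43 FPKM to 4.32 and 3.94 FPKM, with an adjusted p of 0.0013 and 0.0077.

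Subunits of MuvB and DREAM, the complex through which E2F4 and E2F5 repress, were mixed. Mybl2 (B-Myb), an E2F target that turns MuvB into an activator, rose in females from 12.7 and 16.8 FPKM to 67.4 and 63.0 FPKM (log2 fold change 2.08) and in males from 41.4 and 36.2 FPKM to 127 and 101 FPKM (log2 fold change 1.53). Lin37 rose in females (log2 fold change 1.87, adjusted p = 0.00053) and was at 38.6 and 48.3 FPKM in male control against 25.0 and 32.4 FPKM in male Snf5 CKO (adjusted p = 0.081). Of all tested genes, 26.7% were higher and 34.8% lower in females, and 20.9% and 25.3% in males. In this list, 2 of 7 were higher and 1 lower in females, and 2 were higher and 0 lower in males. The male count of higher genes was 1 without control replicate 2 or Snf5 CKO replicate 1, and with the replicate block 2 were lower in females and 1 in males.

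Known G1/S targets of E2F were the largest list. In females 21 of 46 were higher and 6 lower, with a median log2 fold change of 0.41. In males 33 of 46 were higher and 0 lower, with a median of 1.14. The shares of all tested genes were 26.7% higher and 34.8% lower in females, and 20.9% and 25.3% in males. All 46 were tested in both sexes, and 14 were called higher in both, as were 11.1% of the 10472 genes tested in both sexes. The male count of higher targets was 20 after rescaling the libraries and between 23 and 32 with each library left out, and with no filter on low values it was 23, against 11 higher and 2 lower in females. There were 2 targets lower in males with the replicate block. Among the higher genes, those with the smallest adjusted p in females were Ccna2, a cyclin of S phase, Tyms, which makes thymidylate, and Mcm7, a helicase subunit. Ccna2 was at 27.4 and 28.2 FPKM in control and at 134 and 137 FPKM in Snf5 CKO (a log2 fold change of 2.24). The log2 fold changes of Tyms and Mcm7 were 2.49 and 2.39. In males they were Fbxo5 (Emi1), an inhibitor of the anaphase-promoting complex, Ccne1, a cyclin of the G1/S transition, and Rrm2, a subunit of ribonucleotide reductase, with log2 fold changes of 3.01, 2.75 and 3.25. Male Ccne1 was at 4.59 and 4.76 FPKM in control and at 39.1 and 35.3 FPKM in Snf5 CKO.

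The direction of some targets differed between the sexes, as that of E2f4 did. Ccne2, the second cyclin E, fell in females from 81.0 and 77.7 FPKM to 12.8 and 13.4 FPKM (log2 fold change -2.51, adjusted p = 0.00011), whereas in males it rose from 1.64 and 1.47 FPKM to 4.65 and 4.33 FPKM (log2 fold change 1.10, adjusted p = 0.0079). Orc1, of the origin recognition complex, had log2 fold changes of -1.09 in females and 1.18 in males, and Hells, a chromatin remodeler, of -1.13 and 0.67, all past the test. These 3 targets were the only ones of 46 called lower in females and higher in males, and 0 were called the other way. Of the 10472 genes tested in both sexes, 3.47% were called lower in females and higher in males, and 3.52% the other way. The counts of targets thus lie near the background. Pole, the catalytic subunit of DNA polymerase epsilon, fell in females (log2 fold change -1.13, adjusted p = 0.0039) and was at -0.70 in males (adjusted p = 0.21). The difference between the sexes was not tested.

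Of 30 genes of G2 and mitosis, 16 were higher and 4 lower in females (median log2 fold change 0.81). In males 14 were higher and 3 lower (median 0.83). The shares of all tested genes were 26.7% and 34.8% in females, and 20.9% and 25.3% in males. Ccnb1 (cyclin B1) rose in females from 13.6 and 11.7 FPKM to 248 and 251 FPKM (log2 fold change 4.20). Aurkb and Plk1, mitotic kinases, rose in both sexes, with log2 fold changes of 4.21 and 2.89 in females and of 2.02 and 2.34 in males. Bub1, a checkpoint kinase, fell in both, with log2 fold changes of -1.81 and -0.94. In females Top2a and Kif23 were also among the lower genes, with log2 fold changes of -0.90 and -0.96, and in males Cdc25b and Cenpe, with -0.82 and -0.83. Male Cdk1, the kinase of mitosis, rose with a log2 fold change of 1.82. The male counts were 9 higher and 0 lower without control replicate 1, and 1 and 0 were lower without control replicate 2 and Snf5 CKO replicate 2, respectively. After rescaling to equal sums, 8 male genes were higher and 1 lower. With the replicate block, 8 were lower in females, and 22 were higher and 5 lower in males.

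**Figure D4:**
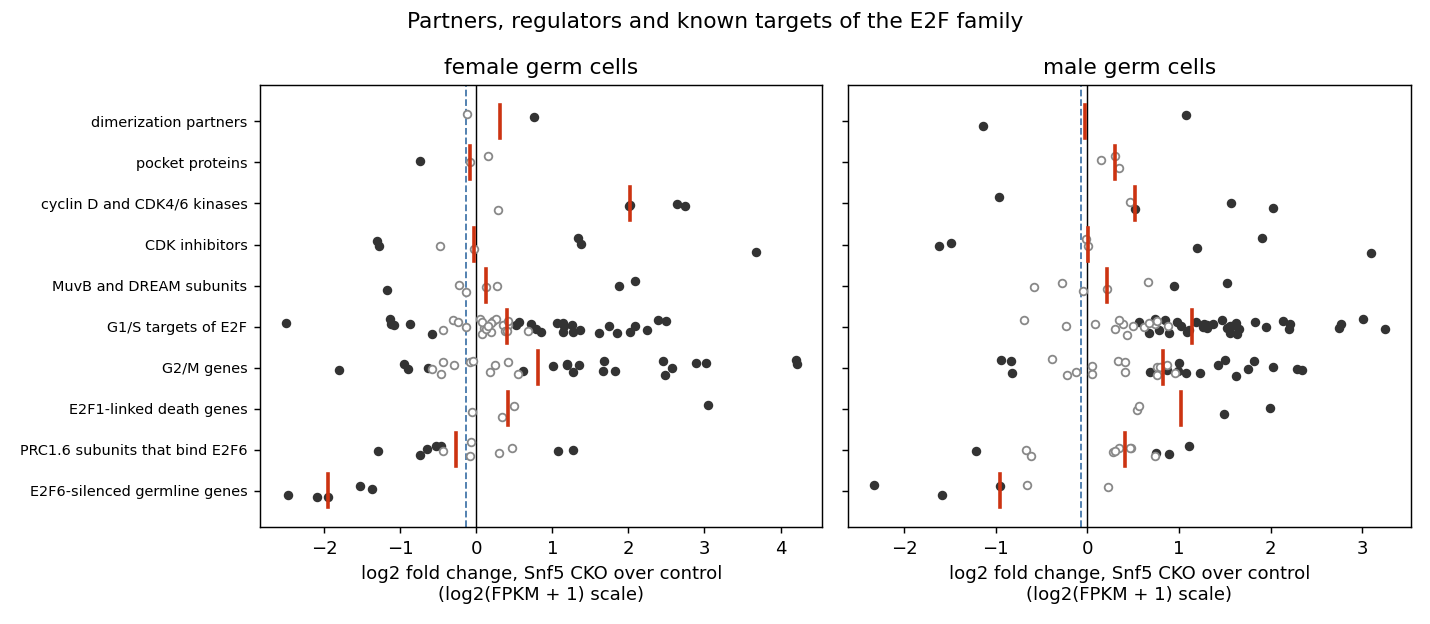
Log2 fold change of the genes in each list related to the E2F family, in females and males. Filled points passed limma's test, red bars are the medians of the lists, and dashed lines the medians of all tested genes (-0.14 and -0.07). The G1/S targets center on 0.41 in females and 1.14 in males, and the germline genes silenced by E2F6 lie lowest, at medians of -1.95 and -0.96.

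Genes of cell death that E2F1 is known to induce were also followed. Bbc3 (PUMA) rose in both sexes. It went from 0.931 and 1.32 FPKM to 13.9 and 19.4 FPKM in females and from 1.64 ± 0.793 to 9.42 ± 2.72 FPKM (SD, n = 2) in males, without overlap. Apaf1, which builds the apoptosome, rose in males (log2 fold change 1.49, adjusted p = 0.017) and had a female log2 fold change of 0.49 (adjusted p = 0.13). Over all tested genes, 26.7% were higher and 34.8% lower in females, and 20.9% and 25.3% in males. Of 4 tested genes in this list, 1 was higher and 0 lower in females, and 2 were higher and 0 lower in males. The female count of higher genes thus lies near the background. The replicate block gave 2 higher in females and 4 in males. The female count was also 2 without control replicate 1, control replicate 2 or Snf5 CKO replicate 2, and after either rescaling. Trp73 had a mean under 1 FPKM in both tables and was not tested. It was at 0.158 and 0.206 FPKM in the female controls against 1.88 and 1.68 FPKM in female Snf5 CKO, and at 0.262 and 0.234 against 0.967 and 0.929 FPKM in males.

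E2F6 acts within PRC1.6, and 12 other subunits of that complex were examined. In females 2 were higher, Max and Ring1, with log2 fold changes of 1.27 and 1.08, and 5 were lower, against 26.7% and 34.8% of all tested genes, so the counts lie near the background. The lower ones with the smallest adjusted p were Mga (-1.29), the scaffold of the complex, L3mbtl2 (-0.75) and Rybp (-0.65). In males, against 20.9% and 25.3% of all tested genes, 3 were higher, Hdac1 (1.10), Rnf2 (0.75) and L3mbtl2 (0.89), and Wdr5 was lower (-1.21). These counts were not steady. Between 1 and 3 were lower in females with 1 library left out and between 2 and 3 after rescaling, 1 was higher in males without control replicate 2, 2 were lower there without Snf5 CKO replicate 1, and the block gave 4 higher in females and 9 higher and 3 lower in males.

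Germline genes that E2F6 silences in somatic cells were high in female control germ cells and lower in female Snf5 CKO, and in males part of them fell. All 5 in the list fell in females, with a median log2 fold change of -1.95. Of all tested genes, 34.8% were called lower in females and 25.3% in males. Stag3, a meiotic cohesin subunit, was at 561 and 400 FPKM in control and at 146 and 102 FPKM in Snf5 CKO. Smc1b, another, was at 445 and 576 FPKM in control and at 84.7 and 96.4 FPKM in Snf5 CKO. In males 3 of 5 fell, Tuba3a, Tuba3b and Slc25a31, with a median over the list of -0.96. Male Stag3 was at 123 and 73.4 FPKM in control and at 73.7 and 48.4 FPKM in Snf5 CKO, and did not pass (adjusted p = 0.17). Slc25a31, an ADP/ATP carrier of germ cells, went from 213 and 311 FPKM to 68.7 and 105 FPKM in males and from 419 and 515 FPKM to 94.0 and 124 FPKM in females. Male Smc1b was at 21.8 and 24.7 FPKM in control and at 25.7 and 28.8 FPKM in Snf5 CKO (adjusted p = 0.34). It passed in neither direction without the replicate block, and 1 gene of the list was higher in males with it. E2f6 itself was higher in female Snf5 CKO, where all 5 fell, and its male level was below control, where 3 fell. Tuba3a and Tuba3b are near-identical tubulin genes whose reads may be shared between them.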

How the data were processed

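The authors mapped reads of amplified cDNA with Tophat, quantified them with Cufflinks on mm10, and deposited 1 table per sex with FPKM for each locus. The annotation is not given in the sources used here. Confidence bounds (16 columns) were left out. Depth cannot be read from FPKM. Steps among values under 0.05 FPKM put the libraries at between 0.953 and 2.45 times the depth of control replicate 1 of their table, with an uncertainty of a factor of 2.

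Groups followed the sample labels. Named loci that averaged 1 FPKM or more in their table (11642 in females, 12368 in males) were tested on log2(FPKM + 1) with limma 3.58.1 in R 4.3.3 (lmFit, eBayes with trend), and the script was tested on simulated data. The deposited starts count from 0, and 1 was added. Sequences came from RefSeq (GRCm38.p6), where 6 of 8 members had a promoter entry. Strands and overlaps came from GENCODE on GRCm38.

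The fit with the replicate block took the replicate number as a shared batch in both sexes. The male column names call it an experiment, which the female ones do not. The names of the raw files differ in style between the numbers. Deviations of same-numbered libraries correlated at 0.504 in females and 0.595 in males. The main fit had no block, so its p-values leave this pairing out. The members and gene lists were chosen with earlier results of these data known. Beside the 5 death genes listed, 2 others are not reported here and enter no count. All members and Smarcb1 were named, and any gene of lists of up to 7 genes. For longer lists the 3 genes with the smallest adjusted p in each direction and sex were named. Exoc3l, Hells, some cell type markers and the overlapping genes were named after their values or positions were seen. The fits were repeated with a pseudocount of 0.1, unfiltered, with a minimum mean of 5 FPKM, with named loci rescaled to equal sums of 1000000, with median-of-ratios factors, without the trend, with the block, on loci of status OK, on summed loci, and with each library left out. Plots used matplotlib 3.10.9 (Python 3.11.15).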

Additional observations from a re-analysis of the deposited data

Results flagged for a closer look

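The direction of 3 repressors was opposite in the sexes, in every library of each sex. The log2 fold change of E2f4 in Snf5 CKO was -0.74 in females and 1.02 in males. For E2f5 it was -0.29 in females and 1.25 in males. For E2f6 it was 1.88 in females and -0.57 in males. The female E2f5 and the male E2f6 values did not pass limma's test without the replicate block. The difference between the sexes was not tested, because the tables were normalized separately.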

How the results depend on the processing

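Every member kept its direction in every alternative that gave it a value. The number of members called in females was 7, and it was 4 with no filter on low values, 3 with a mean of at least 5 FPKM, and between 5 and 6 with each library left out. In males it was 5, and it was 3 with no filter, 2 with a mean of at least 5 FPKM, 2 after rescaling to equal sums, and between 3 and 5 with each library left out (3 without control replicate 1 or Snf5 CKO replicate 1). The fit with the replicate block called 8 in each sex, and in males it raised the calls over all genes to 4330 higher and 5087 lower. With no filter the members lost were E2f1, E2f2 and E2f7 in females (adjusted p = 0.054, 0.059 and 0.14, limma) and E2f3 and E2f8 in males (0.14 and 0.051). A stricter filter tests fewer members. The cause of the other shifts was not tested. Rescaling to equal sums moved the median log2 fold change of all male genes from -0.07 to -0.26, and median-of-ratios rescaling moved the female median from -0.14 to 0.01. The log2 difference in the activator to repressor ratio was 0.82 in females, between 0.65 and 0.99 with each library left out and 0.48 as a difference of means of logs. In males it was 0.13, between 0.12 and 0.15, and 0.0094. With 2 libraries a group and no counts, small changes such as that of E2f1 are near what these data can show.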
